A study of Saccharomyces cerevisiae with 4 samples.

Results

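The 52 genes described here encode proteins of the cytosolic small ribosomal subunit of *Saccharomyces cerevisiae*. They were chosen by gene symbol alone, *RPS* followed by a number and, for duplicated genes, the letter A or B. They are 52 of 5449 genes measured, on 65 probe sets, and 52 of the 56 genes with such a symbol in the RefSeq gene table. The other 4 were not analysed here. Every strain was haploid and labelled FM391. The 4 groups, with 1 Affymetrix array each, were sod1Δ cells given H2O2, untreated sod1Δ cells, wild type cells given H2O2, and untreated wild type cells. The deleted gene encodes the copper-zinc superoxide dismutase. Cultures grew at 30 °C in synthetic medium lacking leucine to early log phase, at an OD600 near 0.4, and treatment was 0.4 mM H2O2 for 20 min. Levels are log2 signals per gene, and differences are differences of log2 signal, so a difference of -1 is a signal lower 2-fold. With 1 array per group there is no replicate error and no test. Each difference compares arrays, and a gene is called lower or higher only when it passes a stated fold.

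Ribosomal protein genes are among the most heavily transcribed genes of growing yeast, and most of them exist as a pair of near-identical copies left from an old duplication of the genome. Their transcription follows nutrients and stress through the factors Rap1, Fhl1, Ifh1 and Sfp1 and the kinase complex TORC1, and falls in many kinds of stress. The small subunit reads the messenger RNA, and its proteins sit in a head, a body and a platform around the decoding site.

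The labels held for the deleted gene. *SOD1* was at 2.42 with H2O2 and 2.40 untreated in sod1Δ cells, and at 14.31 with H2O2 and 14.21 untreated in wild type, where 2.31 is the background floor, the 95th percentile of probe sets for *Schizosaccharomyces pombe*, a species absent from the samples. All 52 small-subunit genes lay far above that floor on all 4 arrays, between 9.29 and 14.27. The values are normalized signals, so a difference is relative to the other transcripts, and less transcript per cell cannot be told apart from fewer cells that express it. For 44 genes with exactly 2 probe sets, the probe sets differed in their change after H2O2 by an SD of 0.64 per probe set in sod1Δ and 0.60 in wild type. Of these genes 13 are small-subunit genes, some with a shared probe set as described further on. Only 2 genes had exactly 2 probe sets without a shared-probe suffix, so nearly all of the 44 had at least 1 probe set with one.

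Every small-subunit gene had a lower signal after H2O2, in both strains, although the size was modest. In sod1Δ cells the median change was -0.71, which leaves 61.1% of the untreated signal, and the changes ran from -1.63 to -0.16. In wild type the median was -0.62, which leaves 65.0%, and the changes ran from -2.08 to -0.05. The median over 5365 genes above the floor on at least 1 array was -0.03 in each strain. In sod1Δ every gene measured stayed below 0 under each of the other settings tried, but in wild type *RPS27B* and *RPS31* turned to 0.01 and 0.06 after quantile normalization.

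**Figure D1:**
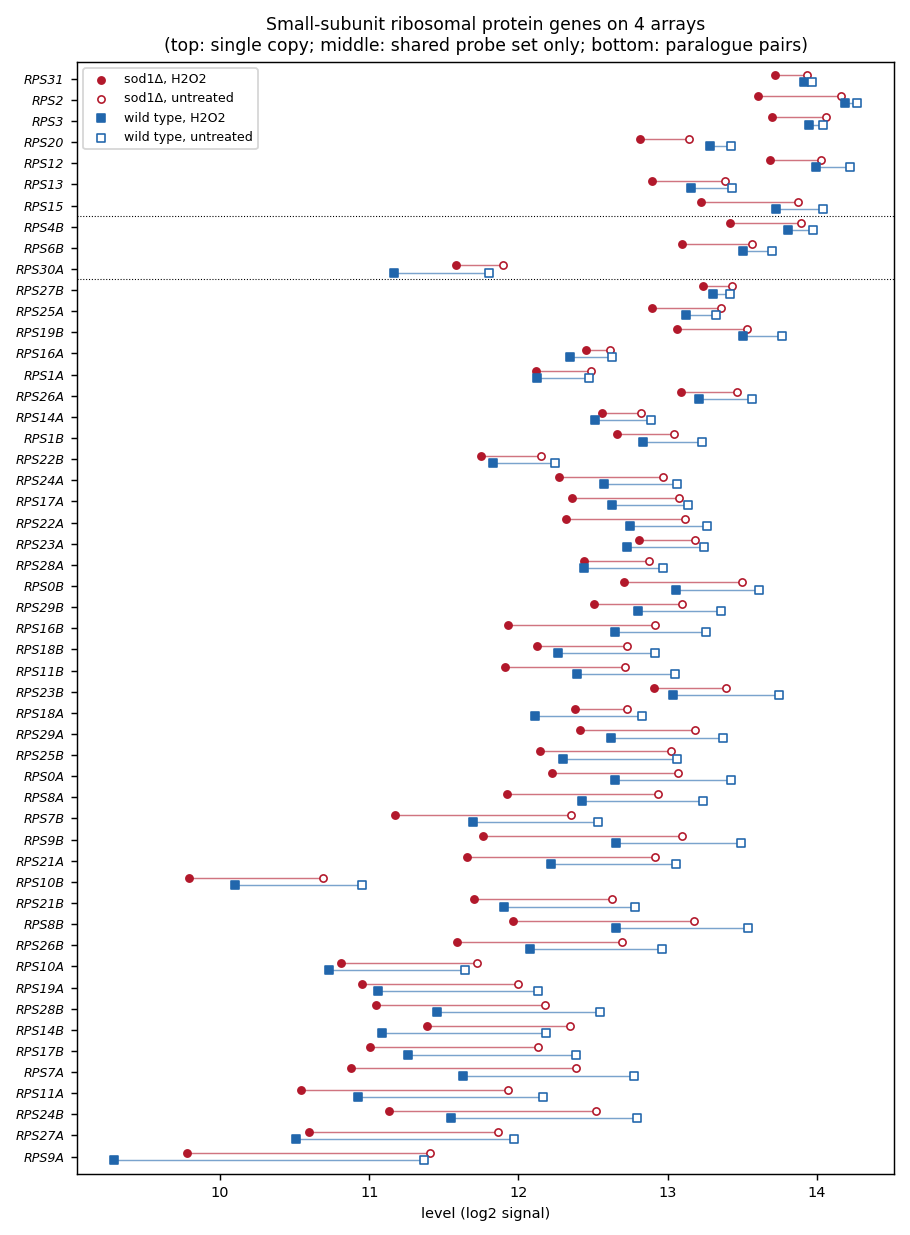
Level of each of the 52 small-subunit genes on the 4 arrays (x axis, log2 signal), with filled symbols for H2O2 and open symbols for untreated cells, circles for sod1Δ and squares for wild type. Every filled symbol lies left of its open partner, and the gap is short in the single-copy genes at the top and longest for *RPS9A* in wild type, 9.29 with H2O2 against 11.37 untreated.

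Counted at 2-fold, 14 of the 52 genes (26.9%) were lower in treated sod1Δ cells, against 15.8% of all 5341 genes tested there. In wild type 9 of 52 (17.3%) were lower, against 16.1% of 5358 genes, which is close to the background and says nothing particular about these genes. None was 2-fold higher in either strain, where 14.6% of all genes were higher in sod1Δ and 17.1% in wild type. A fold of 1.5 took in far more of them. At that fold 30 of 52 (57.7%) were lower in sod1Δ, against 25.3% of all genes, and 27 of 52 (51.9%) in wild type, against 26.2%. In all, 8 genes passed 2-fold in both strains and 15 in at least 1. The matching shares of all genes were not computed, so these counts have no background beside them.

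The single-copy genes changed little. There are 7 of them, *RPS2*, *RPS3*, *RPS12*, *RPS13*, *RPS15*, *RPS20* and *RPS31*, and their median change was -0.36 in sod1Δ, leaving 77.9% of the untreated signal, and -0.14 in wild type, leaving 90.6%. None passed 2-fold in either strain, and only *RPS15* in sod1Δ passed 1.5-fold. *RPS31*, which encodes a fusion of ubiquitin with a protein of the head, had a level of 13.72 with H2O2 and 13.94 untreated in sod1Δ, and of 13.92 with H2O2 and 13.97 untreated in wild type. *RPS2*, whose product lines the channel where messenger RNA enters, had a level of 13.60 with H2O2 and 14.16 untreated in sod1Δ, and of 14.19 with H2O2 and 14.27 untreated in wild type. *RPS2* thus differed between the strains mainly on the treated arrays.

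The other single-copy genes encode proteins of the entry channel, the head and the body. *RPS3*, whose product is also at the entry channel, was at 13.70 with H2O2 and 14.06 untreated in sod1Δ, and at 13.95 with H2O2 and 14.04 untreated in wild type. *RPS15*, whose product reaches toward the decoding site, was at 13.23 with H2O2 and 13.88 untreated in sod1Δ, and at 13.73 with H2O2 and 14.04 untreated in wild type. *RPS20*, whose product is ubiquitinated by the ligase Hel2 when ribosomes stall, was at 12.82 with H2O2 and 13.15 untreated in sod1Δ, and at 13.29 with H2O2 and 13.43 untreated in wild type. All of them had the larger decrease in sod1Δ. *RPS12* of the head was at 13.68 with H2O2 and 14.03 untreated in sod1Δ, and at 13.996 with H2O2 and 14.22 untreated in wild type. *RPS13* of the body was at 12.90 with H2O2 and 13.38 untreated in sod1Δ, and at 13.15 with H2O2 and 13.43 untreated in wild type. These were also larger decreases in sod1Δ, although *RPS12* differed least between the strains, by -0.12.

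The 42 genes with both copies measured had larger changes, with a median of -0.82 in sod1Δ, leaving 56.5%, and -0.73 in wild type, leaving 60.2%. All genes past 2-fold belonged to this group. *RPS9A*, encoding a body protein that bears on the accuracy of decoding, had the largest change in both strains. Its level was 9.78 with H2O2 and 11.40 untreated in sod1Δ, and 9.29 with H2O2 and 11.37 untreated in wild type. *RPS7A*, whose copies both act in the body of the subunit, was at 10.88 with H2O2 and 12.39 untreated in sod1Δ, and at 11.63 with H2O2 and 12.78 untreated in wild type. The untreated *RPS9A* levels were alike between the strains, whereas *RPS7A* was lower in sod1Δ on both arrays.

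The other genes past 2-fold in both strains came from several places in the subunit. *RPS27A*, encoding a zinc-binding protein, was at 10.59 with H2O2 and 11.86 untreated in sod1Δ, and at 10.51 with H2O2 and 11.97 untreated in wild type. *RPS11A*, encoding a body protein, was at 10.54 with H2O2 and 11.93 untreated in sod1Δ, and at 10.92 with H2O2 and 12.16 untreated in wild type. *RPS24B*, also of the body, was at 11.13 with H2O2 and 12.52 untreated in sod1Δ, and at 11.55 with H2O2 and 12.80 untreated in wild type. The changes of these 3 were alike in both strains, from -1.39 to -1.27 in sod1Δ and from -1.46 to -1.24 in wild type.

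Genes of the head were among them as well. *RPS17B* was at 11.01 with H2O2 and 12.13 untreated in sod1Δ, and at 11.26 with H2O2 and 12.38 untreated in wild type, and its 2 probe sets disagreed, as described further on. *RPS28B*, whose product lies near the exit of the messenger RNA and represses its own transcript, was at 11.04 with H2O2 and 12.18 untreated in sod1Δ, and at 11.46 with H2O2 and 12.55 untreated in wild type. *RPS19A*, given with its partner further on, was the last of the 8. Their changes were -1.12, -1.13 and -1.04 in sod1Δ and -1.12, -1.09 and -1.07 in wild type.

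The genes past 2-fold in 1 strain lay close to the threshold in the other. *RPS14B* of the platform passed it in wild type only, at -1.10, against -0.95 in sod1Δ. Another 6 passed it in sod1Δ only, *RPS7B*, *RPS8A*, *RPS8B*, *RPS9B*, *RPS21A* and *RPS26B*, with changes from -1.33 to -1.02 there and from -0.89 to -0.81 in wild type. *RPS9B* was at 11.76 with H2O2 and 13.10 untreated in sod1Δ, and at 12.65 with H2O2 and 13.49 untreated in wild type. *RPS21A* was at 11.65 with H2O2 and 12.91 untreated in sod1Δ, and at 12.22 with H2O2 and 13.06 untreated in wild type. For both, most of the gap between the strains was on the treated arrays.

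The body genes *RPS7B* and *RPS8B* also had a wider gap between the strains on the treated arrays. For *RPS8B* the difference of sod1Δ from wild type was already -0.36 untreated, against -0.69 treated. *RPS7B* was at 11.17 with H2O2 and 12.35 untreated in sod1Δ, and at 11.70 with H2O2 and 12.53 untreated in wild type. *RPS8B* was at 11.96 with H2O2 and 13.18 untreated in sod1Δ, and at 12.65 with H2O2 and 13.54 untreated in wild type. Of these 6 genes, *RPS8A* and *RPS26B* were nearest to the threshold in sod1Δ. *RPS8A* was at 11.92 with H2O2 and 12.94 untreated in sod1Δ, and at 12.43 with H2O2 and 13.24 untreated in wild type. *RPS26B*, encoding a protein at the messenger RNA exit, was at 11.59 with H2O2 and 12.70 untreated in sod1Δ, and at 12.08 with H2O2 and 12.96 untreated in wild type.

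By position in the subunit, 21 head genes had a median change of -0.60 in sod1Δ and -0.56 in wild type. The 31 genes of the body and platform had medians of -0.79 in sod1Δ and -0.66 in wild type. Genes whose proteins have a bacterial counterpart, 23 in all, had medians of -0.60 in sod1Δ and -0.56 in wild type. The 29 without one, the additions of the eukaryotic ribosome, had medians of -0.88 in sod1Δ and -0.76 in wild type. The ranges of these groups overlapped widely, since the bacterial-type group held both *RPS9A* and *RPS2*. Single-copy and paired genes, which differed in their changes, were not separated in these groups. Among the 42 genes with both copies measured the smallest changes in sod1Δ were those of *RPS16A* (-0.16), *RPS27B* (-0.19) and *RPS14A* (-0.26), and in wild type those of *RPS27B* (-0.12), *RPS25A* (-0.20) and *RPS19B* (-0.26).

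Copies of a pair often changed unequally, mostly with the same copy ahead in both strains. Probe sets differ in brightness for reasons of sequence, so the copies are compared by their changes and not by their levels. Over the 21 pairs the A and B changes differed by at least 0.5 in 8 pairs in sod1Δ and in 10 in wild type, of which 7 were the same pairs. A difference of 0.5 is smaller than the SD per probe set between probe sets of the same gene, 0.64 in sod1Δ and 0.60 in wild type. That SD is for a single probe set, whereas a difference between copies holds the scatter of both. The A copy had the larger decrease in 10 pairs and the B copy in 11, in each strain. Of the pairs past 0.5, the dimmer copy decreased more in 7 of 8 in sod1Δ and in 10 of 10 in wild type. Over all 21 pairs it did so in 11 in sod1Δ and in 13 in wild type. From probe sets without a shared-probe suffix alone, it did so in 16 of 21 in sod1Δ and in 17 of 21 in wild type. Dimmer here means less signal on the other strain's untreated array. The part of signal in these differences was not tested. The sign of the A minus B difference was shared by the strains in 19 of 21 pairs, and across pairs the differences of sod1Δ and wild type, which come from separate arrays read with the same probe sets, correlated with r = 0.876. Strain agreement was general, since the changes of all genes above the floor, which are not differences between copies, correlated with r = 0.924.

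*RPS27* was the most unequal pair. Its A copy changed by -1.27 in sod1Δ and -1.46 in wild type, as its levels above show. The B copy was at 13.24 with H2O2 and 13.43 untreated in sod1Δ, and at 13.30 with H2O2 and 13.42 untreated in wild type, which are changes of -0.19 in sod1Δ and -0.12 in wild type. A minus B was therefore -1.08 in sod1Δ and -1.34 in wild type. Close to it in wild type was *RPS9*, with -0.29 in sod1Δ and -1.24 in wild type. *RPS19*, encoding a head protein whose human counterpart is mutated in Diamond-Blackfan anaemia, went the same way. *RPS19A* was at 10.95 with H2O2 and 11.998 untreated in sod1Δ, and at 11.06 with H2O2 and 12.13 untreated in wild type. *RPS19B* was at 13.06 with H2O2 and 13.53 untreated in sod1Δ, and at 13.51 with H2O2 and 13.77 untreated in wild type, so A minus B was -0.57 in sod1Δ and -0.81 in wild type.

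In other pairs the B copy had the larger decrease. *RPS14*, encoding a platform protein that binds the transcript of *RPS14B* itself, is one. *RPS14A* was at 12.56 with H2O2 and 12.82 untreated in sod1Δ, and at 12.51 with H2O2 and 12.89 untreated in wild type. *RPS14B* was at 11.39 with H2O2 and 12.34 untreated in sod1Δ, and at 11.09 with H2O2 and 12.19 untreated in wild type. A minus B was 0.69 in sod1Δ and 0.72 in wild type. *RPS24* had values of 0.69 in sod1Δ and 0.76 in wild type, *RPS26* of 0.73 in sod1Δ and 0.53 in wild type, and *RPS28* of 0.70 in sod1Δ and 0.57 in wild type. *RPS25* passed 0.5 in wild type alone, with 0.42 in sod1Δ and 0.56 in wild type, and *RPS16*, whose protein reaches the transfer RNA in the peptidyl site, in sod1Δ alone, with 0.83 in sod1Δ and 0.33 in wild type. The copies of *RPS1*, *RPS10*, *RPS23* and *RPS29* changed by less than 0.2 from each other in both strains.

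**Figure D2:**
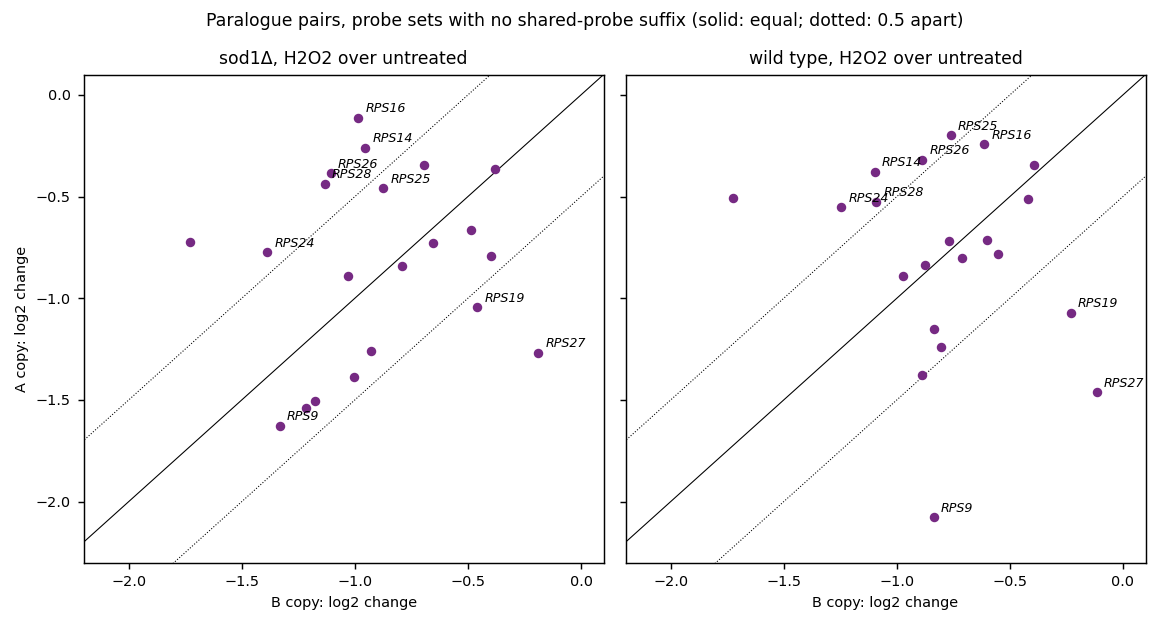
Change after H2O2 of the A copy (y axis) against the B copy (x axis), both as log2 differences, for the 21 pairs in sod1Δ (left) and wild type (right), from probe sets without a shared-probe suffix, with some of the pairs named in the text labelled. Points below the lower dotted line, such as *RPS27* and *RPS19*, had an A copy that decreased by at least 0.5 more than B, and points above the upper one, such as *RPS14* and *RPS24*, the reverse.

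Some of these genes are read by an extra probe set that its name marks as shared with other transcripts, and averaging it in changed the difference between copies. There were 7 genes with an own probe set and a shared one. In 6 of the 7 the shared set showed the smaller decrease in both strains, and the medians were -0.51 for shared and -0.78 for own sets in sod1Δ, and -0.43 and -0.80 in wild type. On the untreated arrays the shared set was brighter for *RPS8A*, *RPS11B*, *RPS17B*, *RPS18B* and *RPS23A*. For *RPS24A* the sets were alike, at 12.94 shared and 13.00 own in untreated sod1Δ. For *RPS19B*, the exception, the shared set was dimmer, at 13.36 against 13.71 there. The part of signal in this difference was not tested. Another 6 genes had an extra set whose name marks possible cross-hybridisation, and there the extra set had the smaller decrease in 3 of 6 in sod1Δ and 2 of 6 in wild type, with differences between -0.09 and 0.26. Among the shared sets *RPS17B* was the widest case. Its own probe set was at 10.04 with H2O2 and 11.77 untreated in sod1Δ, and at 10.52 with H2O2 and 12.24 untreated in wild type, which are changes of -1.73 in sod1Δ and -1.72 in wild type. Its shared set changed by -0.51 in sod1Δ and -0.52 in wild type.

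*RPS8A* was alike, with changes of -1.54 in sod1Δ and -1.38 in wild type on its own probe set and -0.49 in sod1Δ and -0.25 in wild type on the shared one. With own probe sets alone, which leaves out both kinds of extra set, A minus B changed sign for *RPS23*, to -0.18 in sod1Δ and -0.09 in wild type from own sets, where the averages gave 0.11 in sod1Δ and 0.19 in wild type. *RPS10* did so too, to 0.14 in sod1Δ and 0.08 in wild type, against averages of -0.01 in sod1Δ and -0.06 in wild type. Wild type *RPS18* turned as well, to 0.05 from -0.07. On own sets 8 pairs passed 0.5 in sod1Δ and 9 in wild type, 7 of them in both. The 3 genes *RPS4B*, *RPS6B* and *RPS30A* had only a shared probe set, so their values may hold the other copy of the gene too. *RPS4B* changed by -0.47 in sod1Δ and -0.16 in wild type, and *RPS30A* by -0.32 in sod1Δ and -0.63 in wild type. *RPS6B*, encoding the protein phosphorylated downstream of TORC1, was at 13.10 with H2O2 and 13.57 untreated in sod1Δ, and at 13.50 with H2O2 and 13.70 untreated in wild type. Whether own probe sets take up some of the other copy's transcript was not tested.

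**Figure D3:**
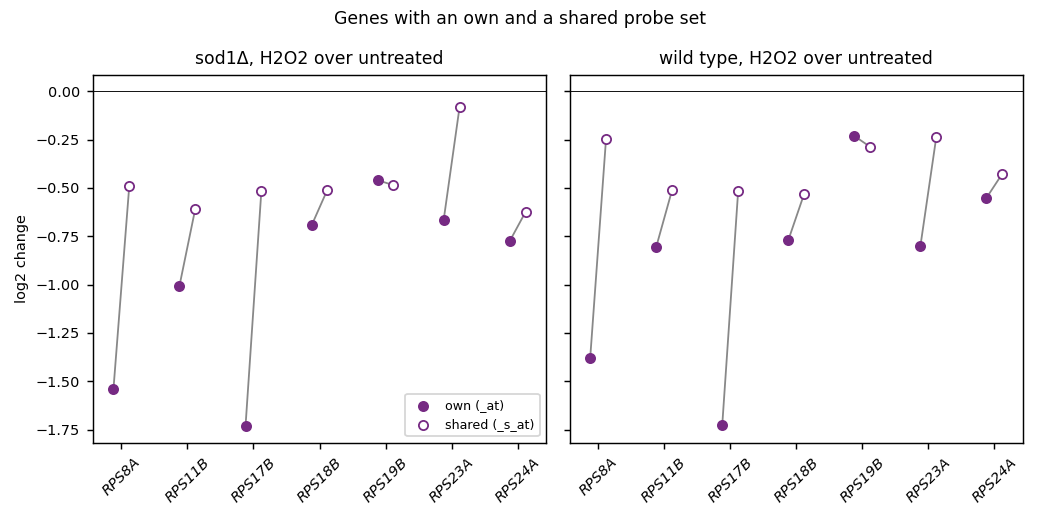
Change after H2O2 (y axis, log2) of the 7 genes that have an own probe set (filled) and one marked as shared (open), in sod1Δ (left) and wild type (right). The shared set lies above the own set for all but *RPS19B*, with the widest gaps for *RPS17B* and *RPS8A*.

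The decrease was smaller for probe sets with more signal. When the level was taken from the untreated array of the other strain, so that the values share no array, level and change correlated over the 52 genes with r = 0.420 in sod1Δ (Spearman rho = 0.379) and r = 0.732 in wild type (rho = 0.751). The points share probe sets and labelling. Within the 42 genes in pairs r was 0.355 in sod1Δ and 0.643 in wild type. Within the 7 single-copy genes it was -0.160 in sod1Δ and 0.298 in wild type. The 26 genes at or above the median mean level of 12.69 had a median change of -0.48 in sod1Δ and -0.37 in wild type, and the 26 below it -0.97 in sod1Δ and -0.85 in wild type. At a mean level of 14 or more there was only *RPS2*, at -0.56 in sod1Δ and -0.08 in wild type. Single-copy genes, with a median mean level of 13.89, were among the brightest, and genes in pairs had one of 12.57. Among all 113 other genes as bright as the dimmest single-copy gene, the changes ran from -1.06 to 1.34 in sod1Δ and from -0.71 to 2.08 in wild type, with medians of -0.16 in sod1Δ and -0.12 in wild type. Only the small-subunit genes were left out of the 113, so they include bright genes of large-subunit proteins, which were not set apart. The part of brightness in the difference between single-copy and paired genes was not tested.

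**Figure D4:**
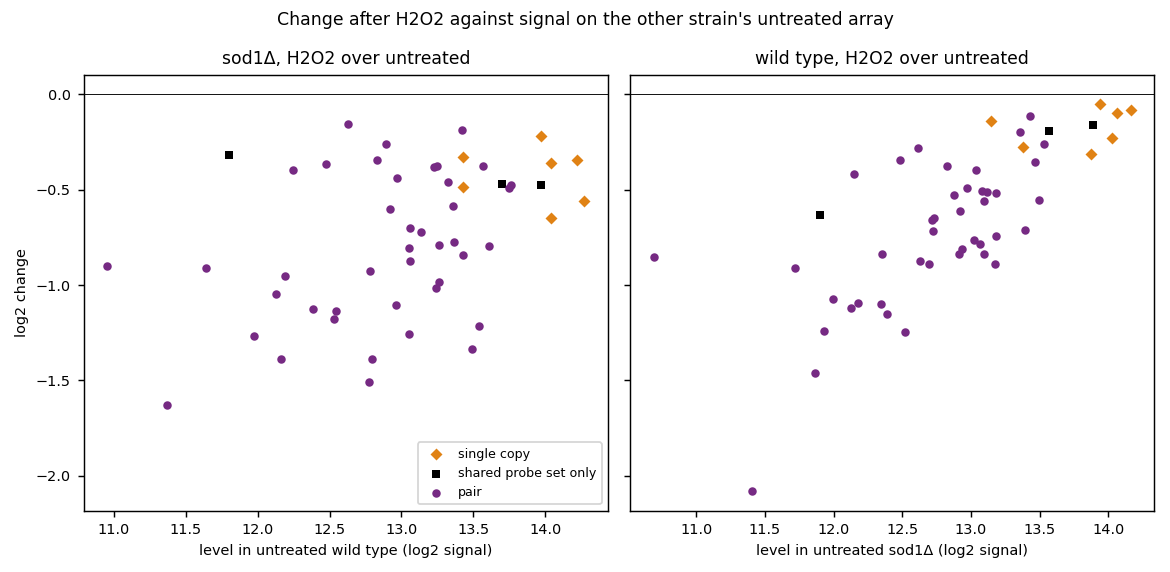
Change after H2O2 (y axis, log2) against the level on the other strain's untreated array (x axis, log2 signal) for the 52 genes, sod1Δ left and wild type right. Single-copy genes (diamonds) lie at the bright end, and the points follow signal with r = 0.420 in sod1Δ and r = 0.732 in wild type.

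The untreated strains differed little in these genes. The median difference of sod1Δ from wild type was -0.14, where all genes had -0.07, and 44 of the 52 were below 0 and 8 above. Of all 5365 genes above the floor, 3092 were below 0. None of the 52 passed 2-fold lower, where 3.18% of 5344 genes did, and none 2-fold higher, where 3.71% did. The lowest was *RPS9B*, at 13.10 in untreated sod1Δ and 13.49 in untreated wild type. *RPS14B* had the largest positive difference, at 12.34 in sod1Δ and 12.19 in wild type. The next lowest were *RPS7A* (-0.39), *RPS28B* (-0.37), *RPS8B* (-0.36), *RPS0A* (-0.36) and *RPS23B* (-0.35). B copies had a median of -0.26 and A copies of -0.10.

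After H2O2 the median difference of sod1Δ from wild type was -0.26, with 43 genes below 0 and 9 above, and the median over all genes was -0.05. Again none passed 2-fold, against 6.33% of 5341 genes lower and 3.07% higher. The 4 lowest were *RPS9B* (-0.89), *RPS7A* (-0.75), *RPS16B* (-0.71) and *RPS8B* (-0.69). *RPS16B* was at 11.93 in treated sod1Δ and 12.65 in treated wild type. The genes with higher levels in sod1Δ were led by *RPS9A* (0.49), *RPS30A* (0.41), *RPS14B* (0.30) and *RPS18A* (0.27).

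The *RPS9* pair had the widest gap between its copies in this comparison. *RPS9A* was at 9.78 in treated sod1Δ and 9.29 in treated wild type, while *RPS9B* was at 11.76 in treated sod1Δ and 12.65 in treated wild type. The A minus B signal was -1.99 in treated sod1Δ and -3.36 in treated wild type, and -1.69 in sod1Δ and -2.12 in wild type on the untreated arrays. That strain difference of 1.38 was the widest of the 21 pairs after H2O2, where the median size was 0.23, and its untreated value of 0.43 was the widest as well. Each *RPS9* copy has 1 probe set, with no shared-probe suffix.

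The difference between the responses, sod1Δ minus wild type, uses all 4 arrays and shares them with the strain differences above. Its median was -0.12, with 37 genes that decreased more in sod1Δ and 15 that decreased less. Over all genes above the floor the median was -0.02, with 2796 of 5365 below 0. None of the 52 differed by 2-fold, where 4.03% of 5365 genes did toward a lower value in sod1Δ and 2.67% toward a higher one. The lowest were *RPS9B* (-0.50), *RPS2* (-0.47), *RPS21A* (-0.42) and *RPS16B* (-0.37), and the highest *RPS9A* (0.45), *RPS18A* (0.37), *RPS30A* (0.31) and *RPS23B* (0.22). *RPS18A*, encoding a head protein that contacts the large subunit, was at 12.38 with H2O2 and 12.73 untreated in sod1Δ, and at 12.11 with H2O2 and 12.83 untreated in wild type. All 7 single-copy genes were below 0, from -0.47 to -0.12. Here too signal moved along, since 22 of the 26 brighter genes were below 0 and 15 of the 26 dimmer ones. For this difference the genes with 2 probe sets gave an SD of 0.45 per probe set.

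**Figure D5:**
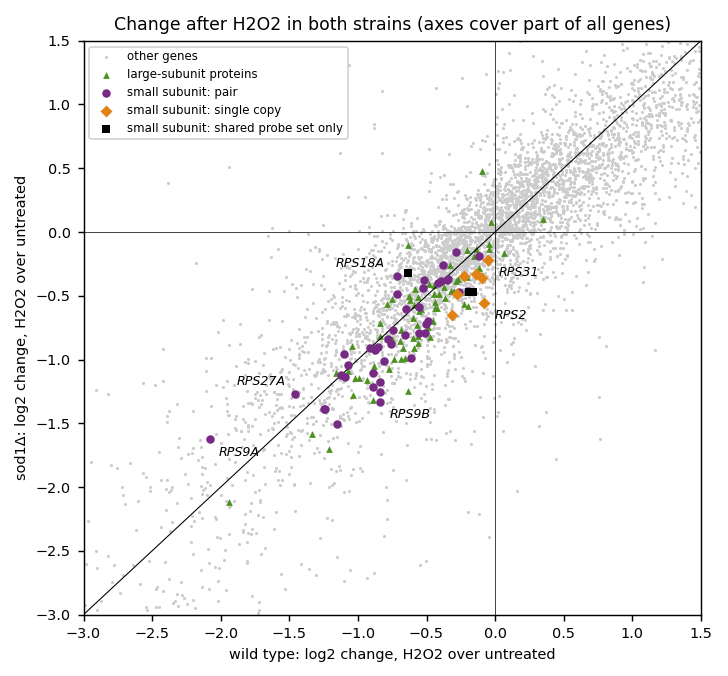
Change after H2O2 in sod1Δ (y axis, log2) against wild type (x axis, log2) for small-subunit genes by class, large-subunit genes (triangles) and other genes (grey, cropped to the range shown). The small-subunit genes lie at the lower left, more of them under the line of equality (37) than over it (15), with *RPS9A* and *RPS18A* over it and *RPS9B* and *RPS2* under it.

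Genes of large-subunit proteins had changes of similar size. Of the 75 measured 13 were 2-fold lower in sod1Δ and 8 in wild type, and none was higher. These counts are close to the 15.8% of all genes in sod1Δ and below the 16.1% in wild type. The medians were -0.59 in sod1Δ and -0.56 in wild type. *RPL22B* was the lowest, at 8.40 with H2O2 and 10.52 untreated in sod1Δ, and at 8.64 with H2O2 and 10.58 untreated in wild type. The small-subunit scaffold protein gene *ASC1*, which the symbol rule leaves out, changed by -0.45 in sod1Δ and -0.32 in wild type. Of 4 genes of proteins bound to the small subunit or ribosome, *ASC1* included, 1 was 2-fold lower in both strains, *TMA46*, at -2.75 in sod1Δ and -2.79 in wild type.

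Genes of factors that build the small subunit had larger decreases than those of its proteins. Of 30 such genes 29 were 2-fold lower in each strain, none was higher, and the medians were -2.98 in sod1Δ and -2.73 in wild type. Among 6 genes of chaperones or escorts of small-subunit proteins, 5 were 2-fold lower and none higher in each strain, and the other was *NAP1* at -0.06 in sod1Δ and -0.13 in wild type. *TSR2*, whose product escorts Rps26, was at 9.49 with H2O2 and 11.82 untreated in sod1Δ, and at 9.15 with H2O2 and 12.19 untreated in wild type. *YAR1*, whose product escorts Rps3, was at 6.74 with H2O2 and 8.61 untreated in sod1Δ, and at 6.12 with H2O2 and 9.26 untreated in wild type. *LTV1*, which acts in the export of the new subunit with Rps3 and Rps20, was at 6.49 with H2O2 and 10.88 untreated in sod1Δ, and at 7.41 with H2O2 and 10.80 untreated in wild type. The genes of these proteins changed less, with *RPS3* at -0.36 in sod1Δ and -0.10 in wild type, *RPS20* at -0.33 in sod1Δ and -0.14 in wild type, and *RPS26A* at -0.38 in sod1Δ and -0.35 in wild type, whereas *RPS26B* was at -1.11 in sod1Δ and -0.89 in wild type. The assembly genes were also dimmer, with a median mean level of 8.79 against 12.69 for the small-subunit genes, and the part of signal in this gap was not tested. In treated sod1Δ some assembly genes came near the floor of 2.31, such as *NOP14* at 2.33 and *TSR1* at 2.56, so the size of their changes is uncertain.

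Of 15 regulators of ribosomal protein genes, 3 were 2-fold lower and 1 higher in sod1Δ, and 5 lower and 2 higher in wild type. Of all genes tested, 15.8% were lower and 14.6% higher in sod1Δ, and 16.1% lower and 17.1% higher in wild type. For a list of 15, the counts in sod1Δ and the higher count in wild type are near or below these shares. *IFH1*, encoding the coactivator of these genes, was at 4.70 with H2O2 and 8.01 untreated in sod1Δ, and at 4.67 with H2O2 and 7.60 untreated in wild type. *FHL1*, encoding the factor that Ifh1 binds, was at 4.77 with H2O2 and 6.62 untreated in sod1Δ, and at 5.49 with H2O2 and 7.09 untreated in wild type. *CRF1*, encoding the corepressor that competes with Ifh1, was at 8.19 with H2O2 and 6.28 untreated in sod1Δ, and at 8.43 with H2O2 and 6.41 untreated in wild type. The lowest change in the list was that of *TOD6*, encoding a repressor of ribosome biogenesis genes, at 2.84 with H2O2 and 9.43 untreated in sod1Δ, and at 2.89 with H2O2 and 8.92 untreated in wild type. Its treated levels lay near the floor of 2.31, so the size of its change is uncertain. Activators and repressors were thus both among the genes that were lower after H2O2. Among 7 genes of ubiquitin sources and ligases that act on the small subunit, 1 was 2-fold higher in wild type, none in sod1Δ, and none was lower. That gene was *UBI4*, the stress-induced polyubiquitin gene, which only just passed with a change of 1.00, at 13.44 with H2O2 and 13.05 untreated in sod1Δ, and at 13.22 with H2O2 and 12.22 untreated in wild type, while the ubiquitin fusion gene *RPS31* changed by -0.22 in sod1Δ and -0.05 in wild type.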

How the data were processed

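RNA from 4 yeast cultures was measured on Affymetrix Yeast arrays, 1 per group, after amplification of 50 ng of RNA, per the labels' protocols. The deposited values are log2 signals per probe set made by the authors with GCRMA, per the submitters' processing notes. No source used here gives the version or options of GCRMA. Probe sets were named through the platform annotation, with 12 symbols updated from the RefSeq gene table (assembly R64), giving 5449 genes. Genes with several probe sets took their mean. Genes counted as tested were above the floor of 2.31 on at least 1 array of the contrast. Called means past 2-fold, or 1.5-fold where named. With 1 array per group no test was made, and the number of arrays limits the precision. The genes, gene lists and thresholds were chosen with earlier results of these data known. Genes are named by this rule: every small-subunit gene may be named, with values on 4 arrays for those past 2-fold, the single-copy genes and the largest differences, and up to 4 genes per contrast of each other list. Alternatives were quantile normalization, centring on the array median, the brightest probe set, probe sets without a shared-probe suffix, 32 added to the linear signal, and splits by level. The script was tested on simulated data. Python 3.11.15, numpy 2.4.6, pandas 2.3.3 and matplotlib 3.10.9 were used. The A against B differences of some pairs are not reported here.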

Additional observations from a re-analysis of the deposited data

How the results depend on the processing

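The medians and counts over the 52 small-subunit genes (49 with own probe sets only), and the counts of pairs, kept their direction and stayed within 1.5 times under the 5 processing alternatives. The medians of smaller groups (single-copy, head, conserved) were not recomputed. Over the processing alternatives the median change ran between -0.78 and -0.62 in sod1Δ and between -0.71 and -0.53 in wild type. Splits by level moved it further. Of the 26 brighter genes 2 were 2-fold lower in sod1Δ and 0 in wild type, and of the 26 dimmer ones 12 in sod1Δ and 9 in wild type. Of all genes tested, 15.8% were 2-fold lower in sod1Δ and 16.1% in wild type. The number 2-fold lower ran from 13 to 16 in sod1Δ and from 8 to 10 in wild type, and the pairs differing by at least 0.5 from 8 to 9 and from 9 to 10. Single genes near 2-fold moved across it. *RPS8A* in sod1Δ was at -0.49 from its brightest probe set at -0.99 after centring and at -0.998 after quantile normalization. *RPS17B* was at -0.51 in sod1Δ and -0.52 in wild type from its brightest probe set. Quantile normalization put 50 of 52 genes below 0 in wild type. No paired analysis was possible because each group has 1 array. Low signal limited no gene, since all 52 lay above the floor on all 4 arrays.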

Other observations

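Several small-subunit genes lie beside another ribosomal protein gene in the RefSeq gene order (assembly R64), and neighbours did not always have similar changes after H2O2. *RPS14B* and *RPS22A* are adjacent, and *RPS14B* changed by -0.95 in sod1Δ and -1.10 in wild type, *RPS22A* by -0.79 in sod1Δ and -0.51 in wild type. *RPS19B* changed by -0.47 in sod1Δ and -0.26 in wild type, and its neighbour *RPL18B* by -1.58 in sod1Δ and -1.34 in wild type. *RPS16A* changed by -0.16 in sod1Δ and -0.28 in wild type, and its neighbour *RPL13B* by -0.84 in sod1Δ and -0.75 in wild type. In the partner arrangement *RPS16B* changed by -0.98 in sod1Δ and -0.61 in wild type, and *RPL13A* by -1.31 in sod1Δ and -0.89 in wild type.

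Probe sets for the corresponding genes of *Schizosaccharomyces pombe*, 7 in all, lay between 2.13 and 2.42 over the arrays, near the floor of 2.31.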
